A study of Homo sapiens
Rattus norvegicus and Homo sapiens with 10 samples.

Results

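Matricellular proteins are secreted into the extracellular matrix, where they act mainly as signals between the matrix and cells and less as its structural scaffold. Most of them bind integrins, collagen or growth factors, and several loosen cell adhesion. In glioblastoma they are best known from the matrix around blood vessels and at the invading edge, and tenascin-C and osteopontin are among the proteins long used to describe the stroma of this tumour. The genes described here are POSTN, TNC, SPARC, TGFBI, THBS1, THBS2, CCN1, CCN2, SPP1 and FN1, found by gene name in the table of counts. These 10 genes are a small set out of 62754 genes, and each name matched 1 row. FN1, fibronectin, is a structural adhesion protein that binds many of the others.

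RNA was sequenced from xenografts of U251N, an established human glioblastoma line, implanted into the brains of adult female RNU/RNU rats, which lack T cells. There were 3 recurrent tumours, which grew back after the tumour had been heated through a laser fibre (laser interstitial thermal therapy, LITT, steered by diffusion-weighted MRI). Against them stood 3 primary tumours never ablated, 3 tumour-free control brains, of which 1 was a failed graft and 2 were procedural, and a single culture library of U251N grown in vitro. In the study's own contrast recurrent tumours were set against primary ones, and the controls and the culture served as quality checks. The tissue sequenced was cut out of frozen slices of brain. All in vivo groups share the host strain, and the controls carry the tumour cell line label although they were described as free of tumour. The rats keep innate immune cells, glia and vessels, so the in vivo libraries held rat RNA. Nothing in the labels ties each library to a separate rat, and p-values then measure only the spread between these libraries, which may in part be technical.

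Total counts were 20321590 to 25299612 in recurrent tumours, 25316552 to 39714714 in primary tumours, 1358753 to 4158124 in controls and 65058642 in the culture. Graft reads, the reads assigned to human, made up 29.44% to 42.67% in recurrent tumours, 42.52% to 64.40% in primary tumours and 0.33%, 0.55% and 4.90% in control replicates 1, 2 and 3. Control replicate 3 thus held more graft reads than the other controls, and results that rest on it are given with and without it. The RNA integrity number was 7.8 to 8.9 in tumours, 8.7, 6.1 and 8.9 in the controls and 9.2 in the culture. The glioma markers VIM, NES, CD44, SOX2, PTPRZ1 and S100B had counts in the tumours, where their summed level ran from 7187 to 7409 CPM (counts scaled by the library total) in recurrent and from 6936 to 8477 CPM in primary tumours. The same sum ran from 81.7 to 6109 CPM in the controls and was 9350 CPM in the culture.

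The human gene IDs lie on GRCh38 as follows in GENCODE release 29, which still names CCN1 CYR61 and CCN2 CTGF. POSTN (ENSG00000133110.15) spans chromosome 13, 37562583 to 37598844, minus strand. TGFBI (ENSG00000120708.17) spans chromosome 5, 136028895 to 136063818, plus strand, and SPARC (ENSG00000113140.11) the same chromosome, 151661096 to 151687165, minus strand. CCN1 (ENSG00000142871.18) spans chromosome 1, 85580761 to 85583962, plus strand, and CCN2 (ENSG00000118523.6) chromosome 6, 131948176 to 131951373, minus strand. THBS2 (ENSG00000186340.17) is on the same chromosome as CCN2, at 169215780 to 169254044, minus strand. THBS1 (ENSG00000137801.11) spans chromosome 15, 39581079 to 39599466, plus strand, and TNC (ENSG00000041982.17) chromosome 9, 115019578 to 115118257, minus strand. SPP1 (ENSG00000118785.15) spans chromosome 4, 87975650 to 87983426, plus strand, and FN1 (ENSG00000115414.21) chromosome 2, 215360440 to 215436172, minus strand. All 10 are protein-coding. The share of 31-base stretches in a member's longest coding transcript that also occur in another gene was 0.801% for THBS1, 0.260% for CCN2, 0.0545% for SPARC and 0% for the other 7. Every member's count lay within 0.003 of a whole number in every library.

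The comparison of recurrent with primary tumours asked what differed in tumours that grew back after heating. Periostin, transforming growth factor beta-induced protein and SPARC stood lower in all 3 recurrent tumours than in any primary tumour, and CCN1 and CCN2 stood higher. None of the 10 genes passed edgeR's quasi-likelihood test after Benjamini-Hochberg adjustment over all 15928 tested genes, of which 0.00628% passed. At an unadjusted p under 0.05 in the same edgeR fit, 5 of the 10 genes stood out, against 8.38% of all genes, with 3 lower (3.79% of all genes) and 2 higher (4.59% of all genes). The 10 genes were chosen with earlier results of these data known, so these counts do not test the set. The log2 fold changes ran from -1.01 for POSTN to 0.69 for CCN2, with 6 genes below 0 and 4 above, while 51% of all genes were below 0. Their median was -0.08, against -0.01 over all genes tested. The groups did not overlap in the 5 genes named first, and over all tested genes this held for 15.4%, with 7.42% lower and 7.94% higher in recurrent tumours. In bulk tissue, fewer cells of a type and less RNA per cell cannot be told apart.

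POSTN encodes periostin, a matrix protein with fasciclin domains that binds integrins and assists collagen cross-linking. It stood at 399, 501 and 331 TMM-scaled CPM in recurrent tumours, against 714, 778 and 993 TMM-scaled CPM in primary tumours. Every recurrent tumour was below every primary tumour, with the lowest value in recurrent replicate 3 and the highest in primary replicate 3. The mean was 410.3 ± 85.8 CPM in recurrent and 828 ± 146 CPM in primary tumours (SD, n = 3 each). Its log2 fold change was -1.01 (SE 0.20, 95% interval -1.46 to -0.56), with an edgeR adjusted p = 0.267 and the 30th smallest p of all genes. DESeq2, run on the same counts, called POSTN with an adjusted p = 7.16e-05, and in that tool 0.608% of genes passed. Without the low-count filter edgeR called POSTN (adjusted p = 0.000174) and CCN2 (adjusted p = 0.0175), and 1.36% of genes passed. An exact two-sided permutation test of the 3 against 3 log values gave p = 0.1, the smallest that this design allows.

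TGFBI encodes a second secreted fasciclin-domain protein, induced by transforming growth factor beta and bound by integrins and collagens. It stood at 1379.6, 1457 and 1199 TMM-scaled CPM in recurrent tumours, against 1793, 2137 and 2641 TMM-scaled CPM in primary tumours. The recurrent tumours were close together and all below the primary tumours, whose spread was wider (1345 ± 132 CPM in recurrent and 2190.1 ± 426 CPM in primary tumours; SD, n = 3 each). On the log2 scale the fold change was -0.70 (SE 0.18, 95% interval -1.10 to -0.31), with an edgeR adjusted p = 0.408. DESeq2 called it with an adjusted p = 0.00973.

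SPARC encodes a small counter-adhesive, collagen-binding glycoprotein. It stood at 3420.3, 2425 and 2377 TMM-scaled CPM in recurrent tumours, against 4093, 3853 and 4447 TMM-scaled CPM in primary tumours. Recurrent replicate 1 lay nearest to the primary tumours, and the groups did not overlap. The log2 fold change was -0.59 (SE 0.17, 95% interval -0.97 to -0.21), with an edgeR adjusted p = 0.508 and a DESeq2 adjusted p = 0.0620. FN1 had a log2 fold change of similar size, -0.56 (SE 0.25, 95% interval -1.13 to 0.003), with an edgeR adjusted p = 0.590, but its groups overlapped. It stood at 553, 666 and 360.5 TMM-scaled CPM in recurrent tumours and 860.4, 561 and 911 TMM-scaled CPM in primary tumours, where primary replicate 2 fell inside the recurrent range.

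**Figure D1:**
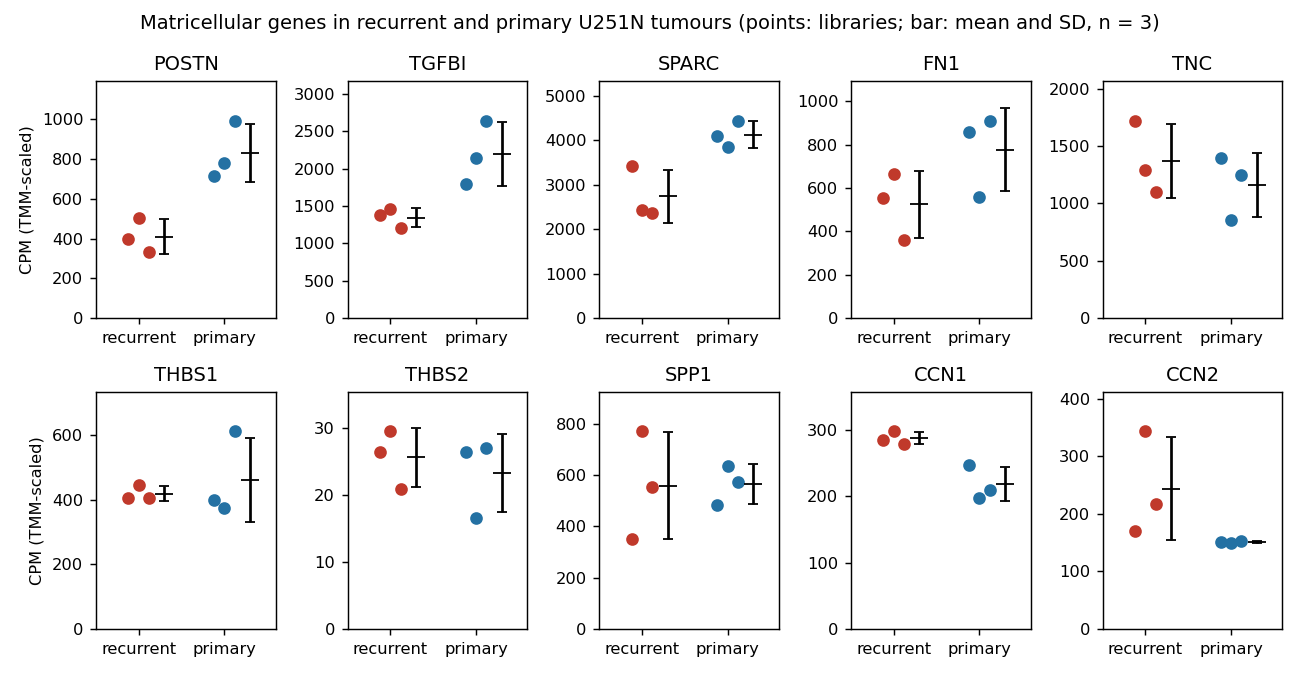
TMM-scaled CPM (vertical axes, from 0) of the 10 matricellular genes in 3 recurrent and 3 primary tumours; points are libraries in the order of their replicate numbers, and the bar beside them is the mean with its SD. POSTN, TGFBI and SPARC are lower in every recurrent tumour, CCN1 and CCN2 are higher in every recurrent tumour, and the other 5 genes overlap between the groups.

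CCN1 and CCN2 encode cysteine-rich secreted proteins that bind integrins and heparan sulphate and are well-known targets of the coactivators YAP and TAZ. CCN1 stood at 285, 298 and 279 TMM-scaled CPM in recurrent tumours, against 247, 198 and 209.6 TMM-scaled CPM in primary tumours. All recurrent values were above all primary values, and the recurrent tumours were nearly equal, with an SD of 9.47 CPM around 288 CPM. Its log2 fold change was 0.40 (SE 0.15, 95% interval 0.07 to 0.73), with an edgeR adjusted p = 0.572.

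CCN2 stood at 169.8, 343 and 218 TMM-scaled CPM in recurrent tumours, against 151, 149 and 152 TMM-scaled CPM in primary tumours. Here the primary tumours were nearly equal, with an SD of 1.62 CPM, and recurrent replicate 2 stood above all other tumours. The log2 fold change was 0.69 (SE 0.23, 95% interval 0.18 to 1.21), with an edgeR adjusted p = 0.521 and a DESeq2 adjusted p = 0.115. Without recurrent replicate 2 it was 0.35, and without recurrent replicate 1 it was 0.89.

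For the other genes the groups overlapped and the intervals included 0. TNC encodes tenascin-C, a large counter-adhesive glycoprotein of embryonic and injured tissue and of glioma vessels. It stood at 1721, 1289 and 1099 TMM-scaled CPM in recurrent tumours and 1392, 854 and 1243 TMM-scaled CPM in primary tumours, with a log2 fold change of 0.24 (95% interval -0.26 to 0.73) and an edgeR adjusted p = 0.769. Recurrent replicate 1 was the highest and primary replicate 2 the lowest of the 6. Without recurrent replicate 1 its log2 fold change was 0.03, and it was 0.05 without primary replicate 2.

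THBS1 encodes thrombospondin-1, an inhibitor of vessel growth that can activate latent transforming growth factor beta. It stood at 405, 446 and 407 TMM-scaled CPM in recurrent tumours and 401, 375 and 613 TMM-scaled CPM in primary tumours. The value of primary replicate 3 stood apart from the other 5 tumours. The log2 fold change was -0.14 (95% interval -0.59 to 0.31; edgeR adjusted p = 0.848), and without primary replicate 3 it was 0.11. THBS2 encodes thrombospondin-2, a related inhibitor of vessel growth. It stood at 26.4, 29.5 and 20.9 TMM-scaled CPM in recurrent tumours and 26.3, 16.5 and 26.9 TMM-scaled CPM in primary tumours, the lowest value being primary replicate 2. It averaged 25.6 ± 4.36 CPM in recurrent and 23.3 ± 5.85 CPM in primary tumours (SD, n = 3 each), with a log2 fold change of 0.14 (95% interval -0.34 to 0.61; edgeR adjusted p = 0.863).

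SPP1 encodes osteopontin, a phosphoprotein bound by integrins and CD44 that tumour cells and macrophages secrete. It stood at 353, 772 and 555 TMM-scaled CPM in recurrent tumours and 483, 638 and 573 TMM-scaled CPM in primary tumours, so that the recurrent tumours held both the lowest and the highest value. The log2 fold change was -0.01 (95% interval -0.59 to 0.56; edgeR adjusted p = 0.991). Of 10 markers of microglia and macrophages, 6 (AIF1, CX3CR1, P2RY12, PTPRC, C1QA and C1QB) had no count in any tumour. The summed level of these markers, most of it CD68, was 24.0 to 27.5 CPM in recurrent and 22.7 to 28.8 CPM in primary tumours, against 22.9 CPM in the culture. The counts are of human genes and the host's macrophages are rat cells, so these values do not measure how many macrophages were present.

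The share of human graft reads was lower in the recurrent group than in the primary group, and with this percentage as a covariate some differences were smaller and others larger. POSTN then had a log2 fold change of -0.64 (SE 0.24), TGFBI -0.39 (SE 0.23) and FN1 -0.27 (SE 0.34), each smaller by over 1.5 times. THBS2, at 0.36 (SE 0.30), was larger by over 1.5 times, and CCN2, at 0.97 (SE 0.30), was larger too. SPARC (-0.62), CCN1 (0.35) and TNC (0.19) kept their direction, while THBS1 (0.31) and SPP1 (0.30) turned theirs. No member passed in that fit, where 0 of 15928 genes passed edgeR after adjustment and 7.23% had an unadjusted p under 0.05. The summed markers of endothelial cells were 0.935 to 2.65 CPM in recurrent and 0.197 to 1.26 CPM in primary tumours, and those of pericytes and fibroblasts 9.45 to 11.9 CPM in recurrent and 7.99 to 22.7 CPM in primary tumours. The culture, which held no host cells, gave 1.47 CPM for the endothelial list and 9.39 CPM for the pericyte and fibroblast list. Each of the 6 endothelial markers was under 3 CPM in every tumour. The summed markers of astrocytes, in part also expressed by the culture at 175 CPM, were 386 to 479 CPM in recurrent and 490.3 to 502 CPM in primary tumours. CLDN5 of the endothelial list and DPT of the pericyte and fibroblast list were at 0 in every tumour. As host cells are rat and the counts are of human genes, these sums do not measure host cells. The part of these cell types in the differences was not tested.

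**Figure D2:**
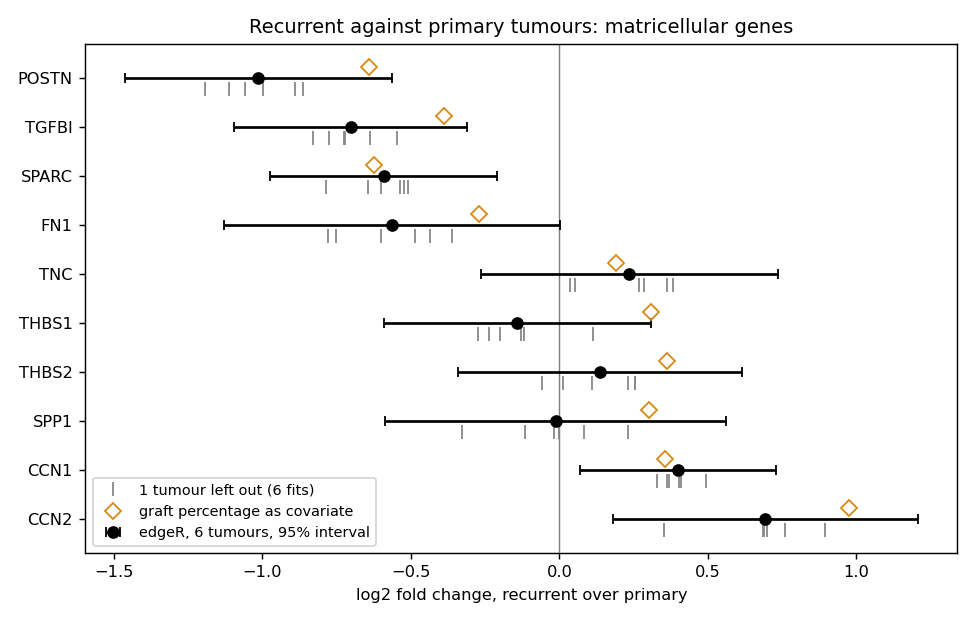
Log2 fold change of recurrent over primary tumours (horizontal axis) for the 10 genes: black points are edgeR estimates with 95% intervals, grey ticks the 6 fits with 1 tumour left out and open diamonds the fit with the graft percentage as a covariate. POSTN runs from -1.19 to -0.86 with 1 tumour left out, and POSTN, TGFBI, SPARC, FN1, TNC, CCN1 and CCN2 stay on 1 side of 0 in all fits drawn.

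Summed over the 10 genes, counts made up a smaller share of the library in every recurrent tumour than in any primary tumour. They took 0.850%, 0.853% and 0.684% of all counts in recurrent tumours, against 1.04%, 0.894% and 1.21% in primary tumours. The recurrent mean was 0.76 of the primary mean (exact two-sided permutation p = 0.1, the smallest possible with 3 against 3). Genes with many counts weigh most in this sum. SPARC averaged 2741 TMM-scaled CPM in recurrent and 4131 in primary tumours, and TGFBI 1345 in recurrent and 2190 in primary tumours. As 4 of the 10 genes had a log2 fold change above 0, the sum does not describe a fall shared by all 10.

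Genes known to act with the matricellular proteins were read in 5 lists, named for their roles. Of 17 other matricellular genes, 10 were tested, with 5 higher, 5 lower and a median log2 fold change of 0.13. FSTL1, a SPARC relative (-0.42, SE 0.14), and CCN4, a CCN family member (-1.16, SE 0.51), had the smallest p among the lower ones. SPOCK1, a SPARC-family proteoglycan (0.31, SE 0.19), and TNR, the tenascin of the nervous system (1.23, SE 0.89), had the smallest among the higher ones. None of these was called by edgeR. CCN6, COMP and SMOC2 had no count in any tumour, and CCN5, SMOC1, SPOCK3 and TNN were not tested at their low counts.

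Of 16 receptors, 12 were tested, with 7 higher, 5 lower and a median of 0.03. LRP1, an endocytic receptor that clears thrombospondins, had the largest size of change (-1.02, SE 0.19; edgeR adjusted p = 0.249), and the integrin ITGA4 stood at -0.39 (SE 0.20). ITGAV, the integrin chain that pairs with several beta chains to bind periostin and osteopontin, stood at 0.22 (SE 0.17), and ITGB8 at 0.15 (SE 0.17). CD44, the hyaluronan and osteopontin receptor, was the most abundant receptor RNA of the list by CPM and stood at 0.06 (SE 0.14). No receptor passed the test.

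All 11 genes listed for the transforming growth factor beta pathway, which induces TGFBI, POSTN and CCN2 in many cells, were tested, with 6 higher, 5 lower and a median of 0.02. The receptor TGFBR2 stood at 93.0 ± 4.30 CPM in recurrent and 61.4 ± 10.7 CPM in primary tumours (SD, n = 3 each; log2 fold change 0.60, SE 0.15; edgeR adjusted p = 0.420), without overlap, and the transducer SMAD3 at a log2 fold change of 0.59 (SE 0.24). The ligand TGFB1 stood at -0.39 (SE 0.18). All 12 genes listed for YAP, TAZ and their TEAD partners were tested, with 7 higher, 5 lower and a median of 0.18. The adaptor AJUBA (0.64, SE 0.20; edgeR adjusted p = 0.521) and YAP1 itself (0.37, SE 0.13; edgeR adjusted p = 0.545) were higher in every recurrent tumour. TEAD2 (-0.21, SE 0.15) was lower in every recurrent tumour, and WWTR1, which encodes TAZ, stood at -0.08 (SE 0.16). In this list the groups did not overlap for 3 of 12 genes higher and 1 of 12 lower in recurrent tumours. Over all tested genes this held for 15.4%, with 7.94% higher and 7.42% lower. Among the other lists, 2 of 10 other matricellular genes, 2 of 9 matrix partners and 1 of 12 receptors were lower without overlap. In the transforming growth factor beta list 1 of 11 genes was higher without overlap.

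Of 11 matrix partners, 9 were tested, with 2 higher, 7 lower and a median of -0.23. COL1A1, a chain of type I collagen, stood at -1.35 (SE 0.28; edgeR adjusted p = 0.276), and LOX, the oxidase that starts collagen cross-linking, at -1.07 (SE 0.23; edgeR adjusted p = 0.283). FBN1, the microfibril protein fibrillin, stood at 0.28 (SE 0.19) and COL4A1, of basement membranes, at 0.31 (SE 0.26). The decorin gene DCN and COL3A1 averaged 0.249 and 0.283 CPM over the 6 tumours and were not tested.

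**Figure D3:**
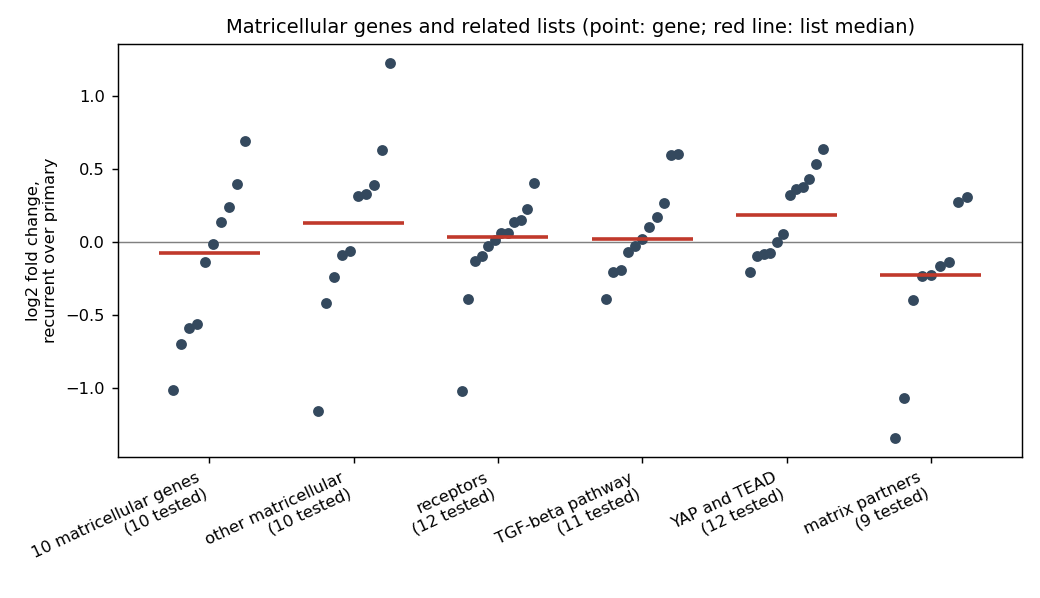
Log2 fold change of recurrent over primary tumours (vertical axis) for the tested genes of each list, sorted within the list; points are genes and red lines list medians. The medians lie between -0.23 for the matrix partners and 0.18 for YAP and TEAD, and the 10 matricellular genes spread from -1.01 to 0.69.

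As a description of likeness, the genes whose log2(CPM + 1) over the 6 tumours followed that of a member most closely were taken from 11711 genes with a mean count over 100. POSTN was followed by INKA2 (Pearson r = 0.978), the tropomyosin TPM1 (r = 0.977) and the protease inhibitor SERPINE2 (r = 0.976). TPM1 stood at 560.1 ± 66.6 CPM in recurrent and 909 ± 173 CPM in primary tumours (SD, n = 3 each). SPARC was followed by KLHL24 (r = 0.996), NBDY (r = 0.994) and SUMF1 (r = 0.988), and THBS1, whose pattern rests on primary replicate 3, by UBE2R2 (r = 0.986), TTC3 (r = 0.974) and UGGT2 (r = 0.963). These 6 points share scaling, depth and the 2 groups, and the genes were picked as the highest of many.

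Per kilobase of the longest coding transcript, SPARC and TGFBI led the set in every tumour. SPARC stood at 642 to 902 CPM per kb in recurrent and 974 to 1231 CPM per kb in primary tumours, and TGFBI at 428 to 539 CPM per kb in recurrent and 654 to 965 CPM per kb in primary tumours. SPP1 came next in every tumour except recurrent replicate 1, where TNC did, at 358 ± 144 CPM per kb in recurrent and 354 ± 35.6 CPM per kb in primary tumours (SD, n = 3 each). POSTN, the fourth in each primary tumour, stood at 245 ± 49.3 CPM per kb there, against 123 ± 28.7 CPM per kb in recurrent tumours, where TNC (179.5 ± 38.2 CPM per kb) stood above it in each library. THBS2 was last in all 10 libraries, at 4.43 ± 0.835 CPM per kb in recurrent and 4.01 ± 1.18 CPM per kb in primary tumours. In recurrent tumours the means of POSTN, CCN1 and CCN2, at 123, 126 and 105 CPM per kb, had SDs of 28.7, 7.59 and 42.1 CPM per kb, and their order differed between the libraries. FN1 and THBS1, at 59.5 ± 18.6 and 54.3 ± 4.62 CPM per kb, also stood in a different order in recurrent replicate 3 than in the other recurrent tumours.

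As shares of the summed per-kb level of the 10 genes, which do not depend on scaling between libraries, POSTN took 4.97% to 6.21% in recurrent and 7.65% to 8.90% in primary tumours. CCN1 took 5.42% to 6.18% in recurrent and 2.77% to 3.90% in primary tumours, and CCN2 took 3.16% to 6.13% in recurrent and 1.97% to 2.32% in primary tumours. TNC took 7.04% to 9.80% in recurrent and 3.98% to 6.58% in primary tumours, THBS2 took 0.182% to 0.212% in recurrent and 0.101% to 0.164% in primary tumours, and TGFBI took 21.4% to 21.7% in recurrent and 23.1% to 28.5% in primary tumours. The CPM of TNC and THBS2 overlapped between the groups, while their shares did not. For each of these 6 genes the shares did not overlap between the groups (exact two-sided permutation p = 0.1 each, the smallest possible), and as the shares of a library sum to a fixed total they are not independent of each other. Such shares exist only within the 10 genes, so no value over all genes stands beside this count. SPARC, whose CPM did not overlap, took 27.4% to 40.2% in recurrent and 36.4% to 39.9% in primary tumours, with overlap (exact two-sided permutation p = 0.4). The shares of THBS1, SPP1 and FN1 overlapped as well. The counts of CCN2 per count of POSTN were 0.425 to 0.685 in recurrent and 0.153 to 0.211 in primary tumours, while those of CCN2 per count of CCN1 overlapped, at 0.595 to 1.15 in recurrent and 0.609 to 0.754 in primary tumours.

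**Figure D4:**
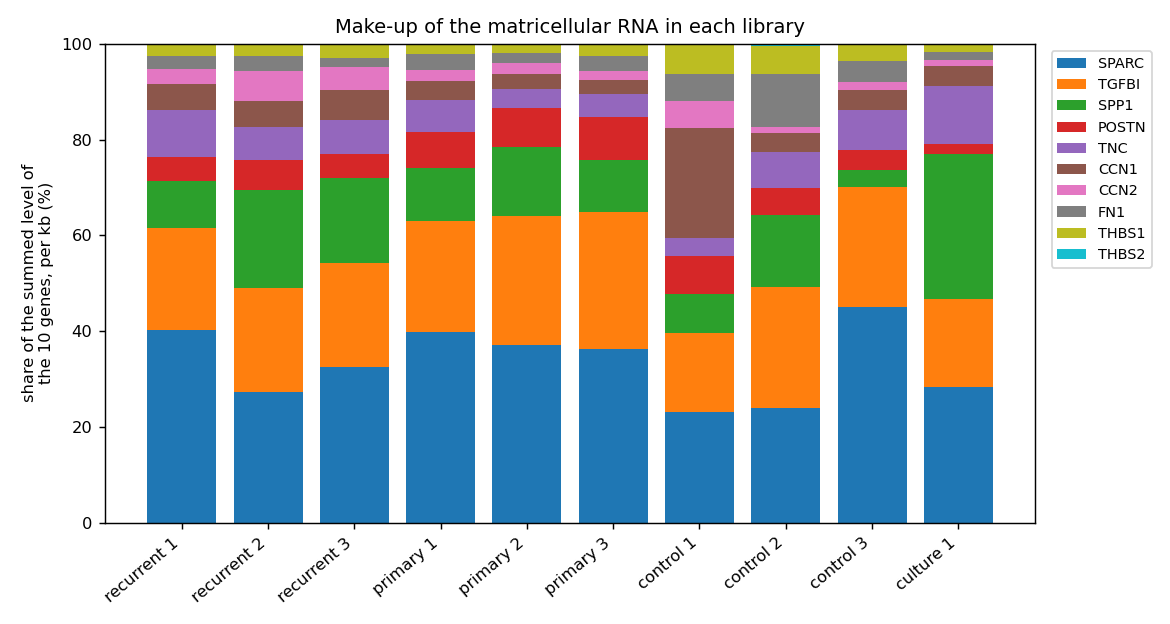
Share of each gene in the summed level of the 10 genes, per kilobase of transcript (vertical axis, in percent), in each of the 10 libraries. SPARC and TGFBI each take a larger share than any of the remaining genes in each tumour, POSTN is wider in primary than in recurrent tumours, and SPP1 takes 30.3% in the culture.

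The 6 tumours were next set against the single culture, which has no replicate and so no test. A gene was counted as differing when the culture lay outside the range of the tumours and at least 4-fold from their mean, with 1 CPM added to both. Of the 10 genes 0 met this, and of 9699 genes with a mean of 10 CPM or more 1.11% did. At 2-fold, a threshold tried as an alternative, 4 of the 10 genes did, against 7.72% of those genes. POSTN and CCN2 were higher in tumours, as were 3.14% of those genes, and SPP1 and TNC were lower in tumours, as were 4.58%.

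POSTN had a lowest, median and highest level of 331, 624 and 1017 CPM in the tumours, against 227 CPM in the culture, 2.73-fold higher in the tumours on average. CCN2 had 139, 161 and 356 CPM in the tumours, against 85.8 CPM in the culture, 2.29-fold higher in the tumours. SPP1 had 344, 571 and 800.4 CPM in the tumours, against 1478 CPM in the culture, a log2 difference of -1.39. TNC had 799, 1305 and 1679.7 CPM in the tumours, against 2831 CPM in the culture, a log2 difference of -1.16. In the culture SPP1 was thus the most abundant of the 10 genes per kb and TNC had 12.5 counts per count of POSTN, against 2.57 to 4.31 in recurrent and 1.098 to 1.95 in primary tumours.

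The culture lay outside the tumours in 5 of the 10 genes, against 55.9% of genes with a mean of 10 CPM or more. SPARC, TGFBI, THBS2, CCN1 and FN1 had a culture level inside the range of the tumours, where SPARC, for example, stood at 2376 to 4557 CPM in the tumours and 3239 CPM in the culture. THBS1 in the culture, at 350.3 CPM, lay just under the lowest tumour at 350.5 CPM. Genes of the related lists past the 4-fold threshold included COL1A1 (684 ± 418 CPM in tumours, against 17.2 CPM in the culture), SPARCL1, a SPARC relative abundant in brain (14.1 ± 7.59 CPM in tumours, against 0.523 CPM in the culture) and TGFB3 (57.7 ± 16.0 CPM in tumours, against 11.5 CPM in the culture), each higher in tumours (SD, n = 6). No receptor and no gene of the YAP and TEAD list was past it.

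The controls give the level measured in brains described as free of tumour. In control replicate 1 the 10 genes had 0 to 26 counts each and in control replicate 2 they had 4 to 187, while control replicate 3 had 89 counts of THBS2 and up to 14978 of SPARC. POSTN stood at 331 to 1017 CPM in the tumours, against 5.89, 21.1 and 307 CPM in control replicates 1, 2 and 3. SPARC stood at 2376 to 4557 CPM in the tumours, against 19.1, 98.1 and 3602 CPM in the controls, where control replicate 3 lay inside the range of the tumours. So did control replicate 3 for TNC (1386 CPM), TGFBI (1534 CPM), FN1 (816 CPM), THBS1 (581 CPM), CCN1 (202 CPM) and THBS2 (21.4 CPM), while it lay below every tumour for POSTN, CCN2 (90.2 CPM) and SPP1. In CPM of the library total, replicates 1 and 2 of the controls lay below every tumour for each of the 10 genes. Structural small RNAs, such as those of the splicing machinery, made up 92.6% and 89.7% of the counts there. In tumours they made up 6.02% to 14.1%. Such a share lowers the CPM of every other gene, so this order depends on the scaling and need not hold over the remaining counts. THBS2 had no count in control replicate 1, which allows up to 2.21 CPM there by counting error only.

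With all 9 in vivo libraries, edgeR called 1 of the 10 genes, SPP1, higher in tumours, and 0 lower, while 6.02% of 16389 genes were called, 1.17% higher and 4.86% lower. SPP1 and CCN2 lay above every control in all tumours on the TMM scale, and the groups did not overlap in 25.4% of genes. SPP1 averaged 563 ± 149 CPM in tumours (SD, n = 6) and stood at 2.94, 26.4 and 119.8 CPM in the controls. Its log2 fold change was 1.80 (SE 0.46; edgeR adjusted p = 0.0376), and the call was lost when any of 5 tumours was left out, with log2 fold changes of 1.69 to 1.84 and edgeR adjusted p from 0.0684 to 0.0826. With library totals in place of TMM it was lost as well, at a log2 fold change of 3.49 (edgeR adjusted p = 0.0659). CCN2 had a log2 fold change of 1.31 (SE 0.45; edgeR adjusted p = 0.123) and POSTN of 1.30 (SE 0.50; edgeR adjusted p = 0.168), and DESeq2 called SPP1 (adjusted p = 9.00e-05) and CCN2 (adjusted p = 0.0361) and 13.5% of genes. With the genes of structural small RNAs left out, edgeR called SPP1 alone of the 10 (adjusted p = 0.0322), and 0.923% of genes higher. Control values varied widely and control replicates 1 and 2 were 92.6% and 89.7% structural small RNA (small non-coding RNAs such as those of the splicing and signal recognition machinery), so a TMM fold change sets a gene against the other genes of these libraries. The median log2 fold change of all genes was 0.22 with TMM and 1.74 with library totals.

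SPARC, TGFBI and TNC did not pass with all 9 libraries. SPARC had a log2 fold change of 0.75 (SE 0.65; edgeR adjusted p = 0.531), TGFBI of 0.81 (SE 0.59; edgeR adjusted p = 0.451) and TNC of 0.54 (SE 0.60; edgeR adjusted p = 0.644). Their values depended on which control was left out. Without control replicate 1 they were 0.29 for SPARC, 0.36 for TGFBI and 0.07 for TNC, and without control replicate 2 they were 0.44 for SPARC, 0.68 for TGFBI and 0.37 for TNC.

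Without control replicate 3, edgeR called 6 of the 10 genes higher in tumours, against 8.85% of genes tested. SPARC then had a log2 fold change of 2.42 (SE 0.49; edgeR adjusted p = 0.00482), CCN2 of 2.32 (SE 0.59; 0.0186 in the same edgeR fit) and POSTN of 1.96 (SE 0.53; edgeR adjusted p = 0.0239). TGFBI, TNC and SPP1 also passed, at log2 fold changes of 1.88, 1.77 and 1.76. The other 4 genes, THBS1 (0.34), THBS2 (0.68), CCN1 (0.87) and FN1 (0.04), did not pass. In control replicate 3 SPP1 took 3.50% of the summed per-kb level of the 10 genes, against 9.70% to 20.4% in the tumours, while FN1 took 4.23% there, against 2.05% to 3.49% in the tumours.

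**Figure D5:**
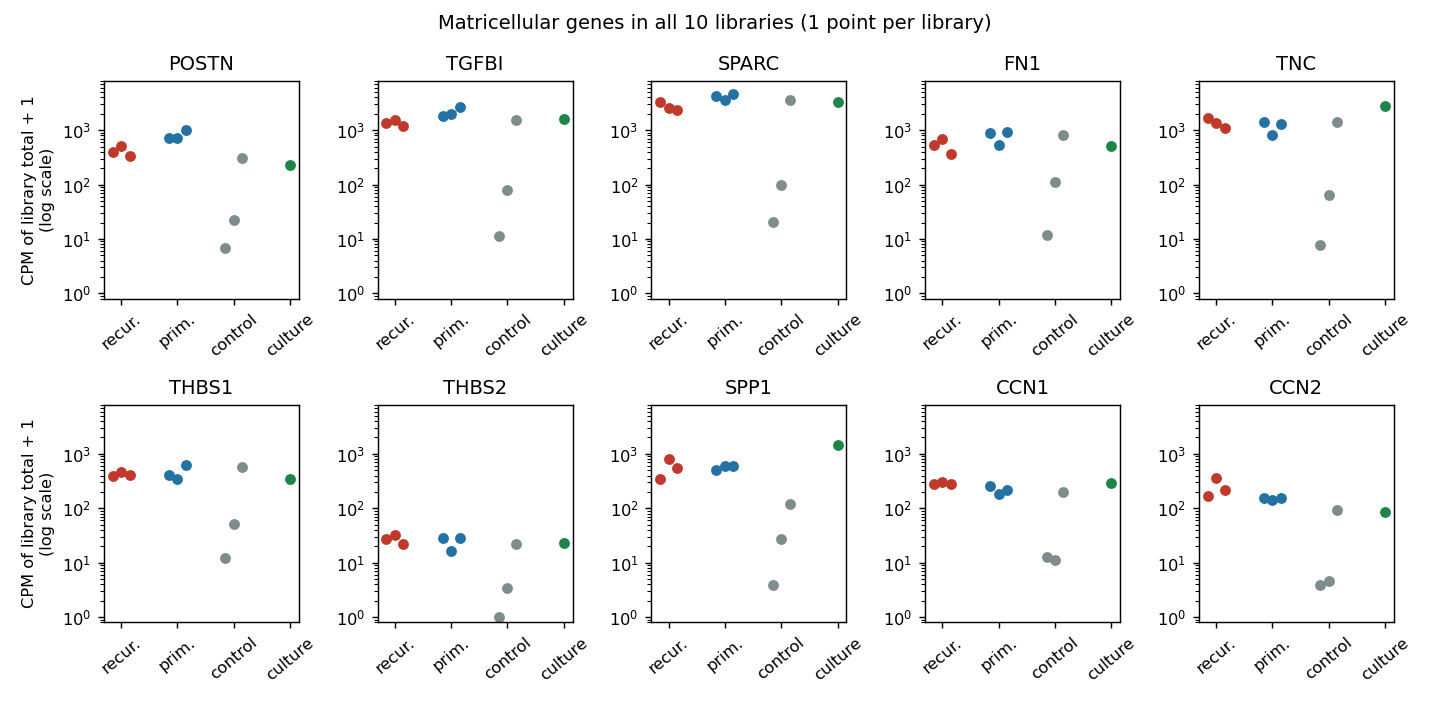
CPM of the library total plus 1 (vertical axes, log scale) of the 10 genes in recurrent tumours, primary tumours, controls and the culture, 1 point per library. On this scale, which structural small RNAs lower in control replicates 1 and 2, these replicates lie below every tumour. Control replicate 3 lies among the tumours for SPARC and TGFBI and below them for SPP1, and the culture lies above every tumour for SPP1 and TNC.

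The controls also gave an estimate of how much of a tumour's count could come from rat RNA, as the control's count per host read times the host reads of the tumour. With control replicates 1 and 2 this was at most 2.98%, for FN1, and at most 0.62% for POSTN, 0.403% for SPARC and 0.860% for SPP1 in any tumour. With control replicate 3, which held graft reads, it reached 12.7% for POSTN, 20.7% for SPARC and 30.97% for FN1. Host reads were derived from the graft percentage and the counts outside structural small RNAs, which takes the deposited counts to be graft reads. The sources used here do not say which read classes were counted, so these percentages hold only under that assumption.

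Among the related lists, edgeR called TNR (-8.43), SPOCK2 (-5.26), COL3A1 (-3.76) and SMAD7, the feedback inhibitor of the transforming growth factor beta pathway (-5.99), lower in tumours than in controls with all 9 libraries. The values are log2 fold changes, and the edgeR adjusted p ran from 0.00065 for TNR to 0.0403 for SPOCK2. TNR, a tenascin of oligodendrocytes and neurons, averaged 1.21 CPM in tumours, SPOCK2 0.644 CPM, COL3A1 0.283 CPM and SMAD7 2.87 CPM. These are low levels, as 3 counts equal 2.21 CPM in control replicate 1 and 1.76 CPM in control replicate 2. The TMM factors were 0.0962, 0.194 and 1.39 in control replicates 1, 2 and 3, against 1.68 to 1.91 in tumours. The size of these fold changes therefore depends on that scaling. Of the neuron markers, SNAP25, RBFOX3 and SYN1 were called lower in tumours as well, and the summed neuron markers ran from 15.6 to 22.5 CPM in tumours and from 84.2 to 381 CPM in controls. The same sum was 57.8 CPM in the culture, which held no host neurons. No receptor and no gene of the YAP and TEAD list was called. Among the receptors, the 2 smallest p in each direction were those of LRP1 (-0.81) and ITGB3 (-0.13), lower, and of ITGB8 (0.62) and CD44 (0.74), higher. In the YAP and TEAD list they were those of ANKRD1 (-0.98) and AXL (-0.52), lower, and of TEAD4 (1.64) and AJUBA (0.77), higher.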

How the data were processed

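The values deposited by the authors are estimated counts from Salmon, with 1 row per gene and 10 libraries, not scaled between libraries. Per the submitters' processing notes, STAR, Salmon 1.10.3 and DESeq2 were used with GRCh38, while the sources used here do not give their settings or the annotation release. Libraries were, per the labels' protocols, stranded and depleted of ribosomal RNA. Groups came from the treatment label, and replicate numbers, given by accession order, pair nothing. Counts were rounded and tested with edgeR 4.0.16 in R 4.3.3 (TMM, default low-count filter, quasi-likelihood F test, two-sided, Benjamini-Hochberg over all tested genes, threshold 0.05), in 1 fit for 3 recurrent against 3 primary tumours and 1 for 6 tumours against 3 controls. The SE is the log2 fold change divided by the square root of F, and its 95% interval uses the fit's degrees of freedom. DESeq2 1.42.0, limma 3.58.1 (voom), other scalings and filters, the graft percentage as a covariate and each library left out were alternatives. The script was tested on simulated data. Lengths and coordinates are from GENCODE 29, which held 58261 of the 62754 gene IDs. The sequences of these genes are not printed here. Scaled levels are TMM-scaled CPM for recurrent against primary tumours and the related genes there, and CPM of the library total elsewhere. Limits for counts of 0 use 3 counts. All 10 members passed the low-count filter. The members, lists and tests were chosen with earlier results of these data known. Of each related list, the genes called are named, at most 4, or else the 2 with the smallest p in each direction. A gene that this rule names is not reported here.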

Additional observations from a re-analysis of the deposited data

Results flagged for a closer look

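Among the 6 tumours, CCN2 in recurrent replicate 2 stood at 343 TMM-scaled CPM, against 149 to 218 in the other tumours, and its gap to the next tumour exceeded Dixon's critical value at the 95% level. THBS1 in primary replicate 3 stood at 613 TMM-scaled CPM, against 375 to 446 in the other tumours, and exceeded it as well. Chance alone passes this limit in about 1 of 20 groups, and each end of 10 genes was examined here. Primary replicate 3 also had the highest graft percentage, 64.40%, and recurrent replicate 2 the highest of the recurrent tumours, 42.67%, and the part of these percentages was not tested.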

How the results depend on the processing

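No paired analysis was possible because the labels give no replicate numbers. For recurrent against primary tumours, edgeR called 1 gene in all. DESeq2 called 105 genes and 2 members, limma-voom 0 genes, edgeR without a low-count filter 411 genes and 2 members, the fit with the graft percentage 0 genes, and the fits with 1 tumour left out 0 to 23 genes. An alternative added after seeing the data left out the tumours with the highest and lowest graft percentage and called 9 genes. POSTN, TGFBI, SPARC, FN1, TNC, CCN1 and CCN2 kept their direction in every alternative run. The log2 fold change of SPP1 turned to 0.018 with library totals, 0.30 with the graft percentage and 0.24 in the added alternative, and ran from -0.33 to 0.23 with 1 tumour left out. THBS1 turned to 0.31 with the graft percentage and 0.14 in the added alternative, and ran from -0.28 to 0.11 with 1 tumour left out, and THBS2 from -0.059 to 0.26.

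For tumours against controls, edgeR called 987 genes and 1 member. DESeq2 called 2280 genes and 2 members, library totals 622 genes and 0 members, no low-count filter 1602 genes, and fits with 1 library left out 522 genes (without control replicate 1) to 2948 genes (without control replicate 3) and 0 to 6 members. A further added alternative, without structural small RNA genes and control replicate 3, called 2065 genes and 6 members. THBS1, THBS2 and FN1 turned to 1.04, 1.57 and 1.07 with library totals, where the median of all genes was 1.74. THBS2 turned to 0.015 without a filter, and THBS1 and THBS2 turned to 0.18 and 0.54 in the added alternative. With 1 library left out THBS1 ran from -0.49 to 0.34, THBS2 from -0.13 to 0.68 and FN1 from -0.68 to 0.036. Against the culture, 198 genes were past 4-fold, 769 with 0.1 CPM added, 64 with 5 CPM added, 1594 genes and 4 members at 2-fold and 44 genes at 8-fold. The causes were not tested. Control replicates 1 and 2 held few human counts, which limits every comparison with them, and the single culture has no spread.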
